A study of Mus musculus with 10 samples.

Results

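The insulin-like growth factor (IGF) genes followed here are Igf1, the receptors Igf1r, Igf2r and Insr, and the binding proteins Igfbp2, Igfbp3, Igfbp4, Igfbp5, Igfbp6 and Igfbp7. They were chosen by symbol, and all array probes that carry one of these symbols were taken. These are 10 genes with 31 probes, of 16650 named genes tested and 62976 features on the array. All 31 probes passed the filter on dim features, the Igfbp3 probe only through the arrays of unconverted fibroblasts, where it is bright. The Igfbp7 probe passed through arrays of cells converted from embryonic fibroblasts, where it is highest. Igf1 and Igf2r have 10 probes each, Insr has 3, Igfbp2 has 2 and the other 6 genes have 1 each.

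IGF1 is a secreted growth factor that signals through the IGF1 receptor, a tyrosine kinase closely related to the insulin receptor. IGF binding proteins hold the ligand outside the cell and can either limit its access to the receptor or carry it, and proteases that cut them release it. In the mouse testis the insulin family of receptors is known for its part in sex determination and in setting the number of Sertoli cells, the somatic cells that support germ cells.

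Expression was measured on 10 single-colour arrays of total RNA labelled with Cy3. Female tail tip fibroblasts (TTFs) had been converted to induced embryonic Sertoli-like cells (ieSCs) for 4 arrays. For another 4 the ieSCs derived from mouse embryonic fibroblasts (MEFs), and unconverted MEFs were on 2 arrays. All cells came from a congenic strain homozygous for R26-M2rtTA, a doxycycline-controlled activator. The ieSCs carried transgenes of 5 transcription factors, namely Dmrt1, Gata4, Nr5a1, Sox9 and Wt1, and were grown for 2 weeks without doxycycline in F12/DMEM, and the MEFs, with no transgene, were cultured for 2 weeks. Each ieSC group holds cells of 2 names, 1 and 2, with 2 arrays of each (1a, 1b, 2a and 2b), and the MEF arrays share a name. The labels do not say whether arrays of a name are separate cultures, so the spread that the p-values rest on may be partly technical. No unconverted TTF array is among the samples, so TTF-derived ieSCs are set against MEFs and against MEF-derived ieSCs. In their comparison with MEFs, conversion and the cell of origin cannot be told apart. The words fell and rose, used below, give the direction of a difference from MEFs, not a change in the same cells.

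Values are levels in log2 intensity as deposited. The 40th percentile of an array lay between 4.988 and 5.023, and levels near or below it belong to the dim end. Arrays of a shared name correlated at 0.9896 to 0.9966 over all features, and ieSC arrays correlated with MEF arrays at 0.9260 to 0.9408. Of 10 Sertoli markers tested, 8 were higher and 2 lower in TTF-derived ieSCs than in MEFs, and 7 were higher and 2 lower in MEF-derived ieSCs. Over all genes, 23.3% were higher and 21.9% lower in TTF-derived ieSCs, and 27.2% and 24.0% in MEF-derived ieSCs. The 2 lower markers were Sox9 (-3.70 in TTF-derived and -3.22 in MEF-derived ieSCs) and Aard (-2.65 and -2.74). Sox9 and Wt1 also belong to the transgene set, so their levels are not independent marks of Sertoli identity. Amh and Fshr, defining genes of fetal and mature Sertoli cells, were below the filter. Of 8 fibroblast markers, 7 were lower in TTF-derived and 6 in MEF-derived ieSCs, and none was higher. Smooth muscle markers were lower in 5 of 5 in TTF-derived and 4 of 5 in MEF-derived ieSCs. Of 3 epithelial markers tested 2 were higher in each kind of ieSC, and of 4 endothelial markers 2 were higher in TTF-derived ieSCs, and 1 was higher and 1 lower in MEF-derived ieSCs. Bulk RNA was hybridised, so fewer cells of a type and less RNA per cell cannot be told apart. Because Wt1 stood at 17.06 in TTF-derived and 17.12 in MEF-derived ieSCs, against 11.49 in MEFs, the promoters of the genes below were searched for WT1 motifs among others.

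Promoter windows of 300 bases, 250 before and 50 after the transcript start, were taken from RefSeq (GRCm38.p6) for 9 of the 10 genes, which have 10 windows. The 4 shown belong to the gene with the lowest level in ieSCs relative to MEFs (Igfbp3), the only one that rose (Igfbp6), and a pair of receptors that differed in opposite directions between the kinds of ieSC (Igf1r and Igf2r). Each is written 5′ to 3′ on the strand of the gene, and capitals mark matches to a searched motif on either strand. Igfbp3 lies at chr11:7213874-7214173 (minus strand), Igfbp6 at chr15:102143936-102144235 (plus), Igf1r at chr7:67952007-67952306 (plus) and Igf2r at chr17:12769657-12769956 (minus).
Igfbp3: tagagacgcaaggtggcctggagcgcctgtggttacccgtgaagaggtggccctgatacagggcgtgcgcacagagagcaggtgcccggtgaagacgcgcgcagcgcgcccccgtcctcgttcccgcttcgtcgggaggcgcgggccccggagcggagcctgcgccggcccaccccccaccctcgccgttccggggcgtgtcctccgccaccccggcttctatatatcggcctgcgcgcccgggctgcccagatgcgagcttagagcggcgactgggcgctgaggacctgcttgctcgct
Igfbp6: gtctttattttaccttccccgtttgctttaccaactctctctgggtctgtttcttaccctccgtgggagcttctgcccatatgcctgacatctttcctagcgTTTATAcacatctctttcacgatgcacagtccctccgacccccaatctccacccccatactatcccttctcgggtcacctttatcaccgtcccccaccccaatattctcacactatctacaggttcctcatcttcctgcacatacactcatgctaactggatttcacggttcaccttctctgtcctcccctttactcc
Igf1r: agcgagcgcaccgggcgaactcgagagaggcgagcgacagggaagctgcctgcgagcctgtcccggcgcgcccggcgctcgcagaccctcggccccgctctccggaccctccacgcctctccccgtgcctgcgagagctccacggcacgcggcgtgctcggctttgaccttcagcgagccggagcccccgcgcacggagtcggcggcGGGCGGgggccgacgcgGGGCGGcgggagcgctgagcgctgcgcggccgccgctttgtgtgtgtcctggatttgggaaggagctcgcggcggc
Igf2r: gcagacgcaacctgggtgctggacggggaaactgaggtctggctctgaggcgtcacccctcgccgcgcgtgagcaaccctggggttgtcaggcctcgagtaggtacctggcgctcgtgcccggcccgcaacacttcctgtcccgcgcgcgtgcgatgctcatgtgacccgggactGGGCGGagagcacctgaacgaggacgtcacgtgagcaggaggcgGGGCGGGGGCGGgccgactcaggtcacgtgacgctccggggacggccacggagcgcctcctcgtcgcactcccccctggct

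The motifs searched were GCGGGGGCG, shared by WT1 and EGR1 (in 2.91% of the 32851 windows in the table), the WT1 form GCGTGGGAG (0.47%), CAAGGTCA for NR5A1 (1.56%), ACAATGG for SOX9 (3.66%), AGATAAG for GATA4 (3.04%), the GC box GGGCGG (35.66%), GTAAACA for FoxO factors (3.65%) and the TATA box TATAAA (13.62%). The Igf2r window held 3 GC boxes and 1 match to GCGGGGGCG, which overlaps a pair of the GC boxes. The Igf1r window held 2 GC boxes. The Igfbp6 window held 1 TATA box on the minus strand, written TTTATA above, and the Igfbp3 window held no match. Of the genes not shown, the first Igfbp2 window had 3 GC boxes, Igfbp7 had 4, Igf1 had 1 SOX9 motif and Igfbp4 had 1 TATA box, while Igfbp5 had none. The GC content was 71.7% for Igfbp3, 76.0% for Igf1r and 70.7% for Igf2r, above the median of 52.7% over the table, and 49.7% for Igfbp6. These matches are descriptions of the letters and are not measured binding.

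Of the 10 genes, 7 were lower and 1 higher in TTF-derived ieSCs than in MEFs, and the same numbers, 7 lower and 1 higher, were found for MEF-derived ieSCs. Among all genes tested, 21.9% were lower and 23.3% higher in TTF-derived ieSCs, and 24.0% were lower and 27.2% higher in MEF-derived ieSCs (limma adjusted p under 0.05 over 16650 genes). The median log2 difference of the 10 genes was -1.78 in TTF-derived and -2.15 in MEF-derived ieSCs, against 0.06 and 0.10 over all genes. Both comparisons use the same 2 MEF arrays, and Igfbp3, counted as lower in each, passed the filter through those arrays alone. Igf1, Igf1r, Igfbp2, Igfbp3, Igfbp4 and Igfbp5 were lower in both kinds of ieSC, Igfbp6 was higher in both, and Igfbp7 passed in neither. Igf2r was lower only among the TTF-derived calls and Insr only among the MEF-derived calls, and both differed between the kinds of ieSC when tested directly.

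**Figure D1:**
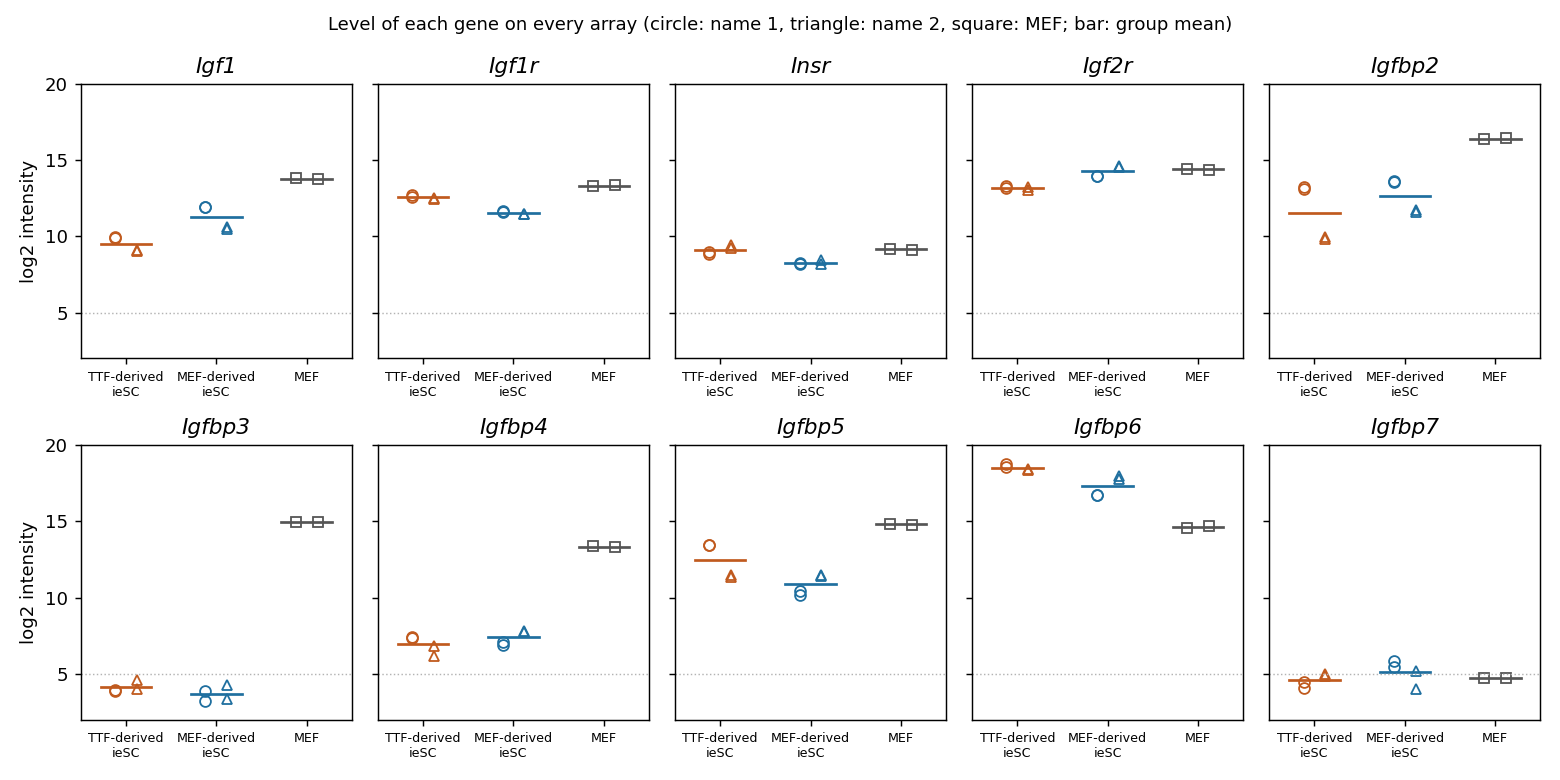
Level in log2 intensity (y axis) of each of the 10 genes on every array, with TTF-derived ieSCs left, MEF-derived ieSCs in the middle and MEFs right; bars are group means and the dotted line stands near the 40th percentile of the arrays. Igfbp3 stands at 14.94 and 14.97 on the MEF arrays and below 5 on every ieSC array, and Igfbp6 is higher on all ieSC arrays than on the MEF arrays.

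Igf1, the ligand, was lowest in TTF-derived ieSCs, intermediate in MEF-derived ieSCs and highest in MEFs. On arrays 1a, 1b, 2a and 2b its level was 9.93, 9.88, 9.07 and 9.05 in TTF-derived ieSCs and 11.92, 11.92, 10.63 and 10.5 in MEF-derived ieSCs, against 13.8 and 13.74 in MEFs. The 3 groups did not overlap, and within each kind of ieSC both arrays of name 2 were below both of name 1. Igf1 fell by 4.29 ± 0.47 in TTF-derived ieSCs relative to MEFs (SE, limma adjusted p = 5.93e-05), a 19.5-fold difference. In MEF-derived ieSCs it fell by 2.52 ± 0.47 (5.76-fold, limma adjusted p = 0.00151). TTF-derived ieSCs were lower than MEF-derived ieSCs by a log2 difference of -1.76 ± 0.38 (limma adjusted p = 0.00591). With the arrays of each name averaged, the calls in MEF-derived ieSCs and between the kinds of ieSC were lost (limma adjusted p = 0.0644 and 0.126). Between the kinds of ieSC the call was also lost without name 2 of the TTF-derived ieSCs (-1.34, limma adjusted p = 0.0556), and the difference was -1.09 without name 1 of the MEF-derived ieSCs (limma adjusted p = 0.0279).

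The 10 Igf1 probes fall under 2 annotated transcripts, and they differed in size. Relative to MEFs, the 8 probes of the first transcript had log2 differences of -5.20 to -3.66 in TTF-derived ieSCs and -2.63 to -2.21 in MEF-derived ieSCs. The 2 probes of the second had -1.54 and -1.19 in TTF-derived ieSCs and -1.44 and -1.13 in MEF-derived ieSCs. All 10 passed in both comparisons. With names averaged, the limma adjusted p of the 10 probes in MEF-derived ieSCs ran from 0.00845 to 0.0640, on both sides of the threshold. Between the kinds of ieSC, all 8 probes of the first transcript were lower in TTF-derived ieSCs (differences of -2.57 to -1.40), whereas the 2 of the second differed by -0.10 and -0.06 and did not pass (limma adjusted p = 0.665 and 0.613). One probe of the second transcript read 9.47, 9.42, 9.41 and 9.37 in TTF-derived ieSCs and 9.48, 9.45, 9.48 and 9.51 in MEF-derived ieSCs, against 10.6 and 10.62 in MEFs. On that probe the kinds of ieSC lay together, below both MEF arrays.

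Igf1 is known to be made by macrophages as well as by fibroblasts. All 8 macrophage markers listed were lower in TTF-derived and in MEF-derived ieSCs than in MEFs. Their summed intensity, on the log2 scale, was 10.42 to 11.31 in TTF-derived and 11.17 to 11.49 in MEF-derived ieSCs, against 15.82 to 15.89 in MEFs. Csf1r carries most of this sum in ieSCs, at 10.52 in TTF-derived and 10.98 in MEF-derived ieSCs, against 14.73 in MEFs. C1qa, a complement gene of macrophages, stood at 3.98 in TTF-derived and 4.03 in MEF-derived ieSCs, at the dim end, against 12.31 in MEFs. The summed intensity of the 8 fibroblast markers was 18.45 to 18.76 in TTF-derived and 18.65 to 18.72 in MEF-derived ieSCs, against 19.97 to 19.98 in MEFs. In both kinds of ieSC that sum is carried by Fn1, which did not pass, and Col1a1. In MEFs Col1a2 was the brightest of the 8, at 18.7, against 7.66 in TTF-derived and 7.72 in MEF-derived ieSCs. The median log2 difference of the 8 markers was -6.62 in TTF-derived and -8.32 in MEF-derived ieSCs. Thy1, a surface marker of fibroblasts, stood at 4.54 in TTF-derived and 5.33 in MEF-derived ieSCs, against 17.24 in MEFs. The part of these cell types in the Igf1 difference was not tested.

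Igf1r, the signalling receptor of IGF1, ordered the groups differently from the ligand. Its level was 12.57, 12.73, 12.48 and 12.45 on the TTF-derived arrays and 11.59, 11.63, 11.46 and 11.46 on the MEF-derived arrays, against 13.28 and 13.33 in MEFs. No array of one group overlapped another group. Igf1r fell by 0.75 ± 0.13 in TTF-derived ieSCs (limma adjusted p = 0.00139) and fell by 1.77 ± 0.13 in MEF-derived ieSCs (limma adjusted p = 4.28e-06), 1.68-fold and 3.41-fold differences. It was 2.03-fold higher in TTF-derived than in MEF-derived ieSCs (log2 difference 1.02 ± 0.11, limma adjusted p = 0.000102). These calls held under every alternative run.

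Insr, the insulin receptor, passed in MEF-derived ieSCs only. Its level was 8.94, 8.86, 9.22 and 9.44 in TTF-derived ieSCs and 8.16, 8.23, 8.42 and 8.19 in MEF-derived ieSCs, against 9.18 and 9.10 in MEFs. The MEF arrays lay inside the range of the TTF-derived arrays and above all MEF-derived arrays. The log2 difference from MEFs was -0.02 ± 0.21 in TTF-derived ieSCs (limma adjusted p = 0.941) and -0.89 ± 0.21 in MEF-derived ieSCs (limma adjusted p = 0.00613). TTF-derived were higher than MEF-derived ieSCs by 0.87 ± 0.17 (limma adjusted p = 0.00376). Of the 3 Insr probes, 1 passed in MEF-derived ieSCs, where the 3 differences ran from -0.89 to -0.18. The same 1 passed between the kinds of ieSC, at 0.87, and the other two, at 0.38 and 0.19, did not (limma adjusted p = 0.111 and 0.491). With the mean of the probes taken, Insr differed by -0.52 in MEF-derived ieSCs and by 0.48 between the kinds of ieSC, and both passed. With names averaged, the adjusted p in MEF-derived ieSCs was 0.0542, and between the kinds of ieSC it was 0.0620.

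Igf2r, which takes IGF2 to lysosomes for breakdown and is an imprinted gene in mice, was lower in TTF-derived ieSCs. It read 13.27, 13.19, 13.24 and 13.01 on the TTF-derived arrays and 13.97, 13.92, 14.6 and 14.52 on the MEF-derived arrays, against 14.4 and 14.37 in MEFs. All TTF-derived arrays were below all others, and the MEF-derived arrays lay on both sides of the MEF arrays. Igf2r fell by 1.21 ± 0.23 in TTF-derived ieSCs relative to MEFs (2.31-fold, limma adjusted p = 0.00180), and the log2 difference in MEF-derived ieSCs was -0.13 ± 0.23 (limma adjusted p = 0.658). Against MEF-derived ieSCs it was lower by a log2 difference of -1.07 ± 0.18 (limma adjusted p = 0.00168). All 10 probes were lower in TTF-derived ieSCs in both comparisons, with log2 differences from MEFs of -1.30 to -1.16, and 0 of 10 passed in MEF-derived ieSCs. Without name 2 of the MEF-derived ieSCs, Igf2r passed there too, at -0.44 (limma adjusted p = 0.0436). With names averaged, both TTF-derived calls were lost (limma adjusted p = 0.0568 and 0.0676). Probe by probe, the averaged limma adjusted p against MEFs ran from 0.0466 to 0.0666, on both sides of the threshold.

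**Figure D2:**
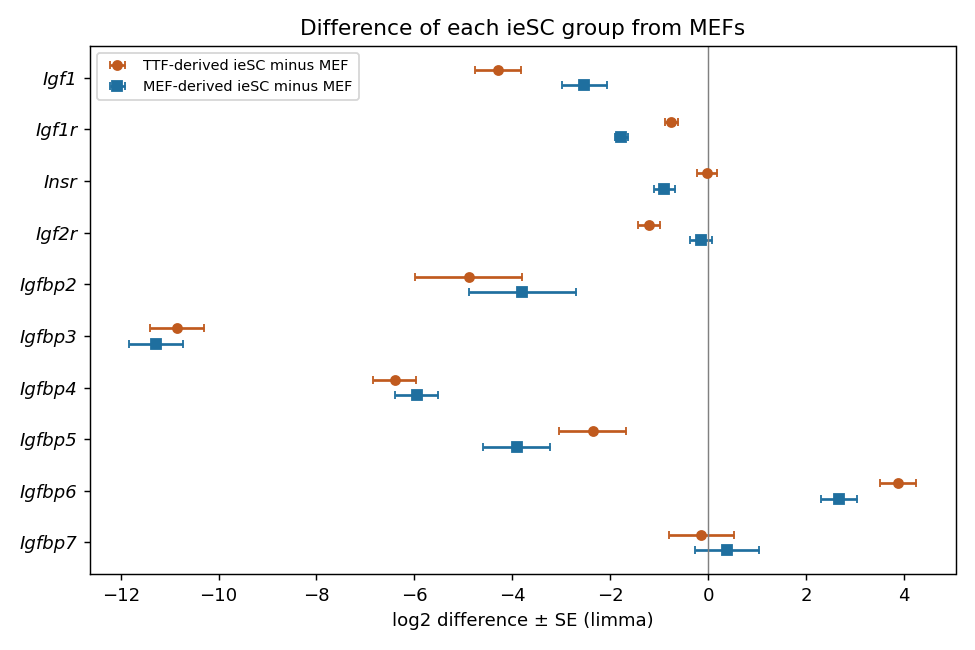
Log2 difference from MEFs (x axis) with its SE from limma for each of the 10 genes (y axis), as circles for TTF-derived and squares for MEF-derived ieSCs. Igfbp3 has the largest differences, -10.84 and -11.27, and Igfbp6 is the gene on the right, at 3.88 and 2.68.

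Igfbp3, the main IGF carrier in blood, showed the largest difference of the 10 genes. In MEFs it read 14.94 and 14.97, a bright signal. In TTF-derived ieSCs it read 3.97, 3.87, 4.01 and 4.62, and in MEF-derived ieSCs 3.23, 3.86, 4.31 and 3.36. All 8 ieSC arrays were at the dim end, so the size of the difference depends on where the floor of the array lies. The gene passed the filter on dim features through the MEF arrays alone, a route open only to genes brighter there than in ieSCs. The p-values below are therefore not independent of the filter. Igfbp3 fell by 10.84 ± 0.55 in TTF-derived ieSCs and fell by 11.27 ± 0.55 in MEF-derived ieSCs (limma adjusted p = 4.07e-07 and 2.60e-07). With values below the 40th percentile raised to it, the differences were -9.95 in both kinds of ieSC, 989-fold and 990-fold. The kinds of ieSC could not be told apart at this end of the scale (0.43 ± 0.45, limma adjusted p = 0.521).

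Igfbp4, which keeps IGFs from the receptor until the protease PAPP-A cuts it, also fell far in both kinds of ieSC. It read 7.4, 7.35, 6.21 and 6.82 in TTF-derived ieSCs and 7.08, 6.90, 7.83 and 7.76 in MEF-derived ieSCs, against 13.38 and 13.3 in MEFs. Every ieSC array was far below both MEF arrays, and the kinds of ieSC overlapped. Igfbp4 fell by 6.40 ± 0.44 in TTF-derived ieSCs (84.4-fold, limma adjusted p = 2.65e-06) and fell by 5.95 ± 0.44 in MEF-derived ieSCs (61.8-fold, limma adjusted p = 3.56e-06). Between the kinds of ieSC the log2 difference was -0.45 ± 0.36 (limma adjusted p = 0.378).

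Igfbp2, a binding protein with an integrin-binding motif, was lower than in MEFs in both kinds of ieSC, and its level depended on the name. It read 13.22, 13.07, 9.80 and 9.97 in TTF-derived ieSCs and 13.57, 13.6, 11.57 and 11.69 in MEF-derived ieSCs, against 16.39 and 16.42 in MEFs. Both arrays of name 2 were well below both of name 1 in each kind of ieSC. Igfbp2 fell by 4.89 ± 1.09 in TTF-derived ieSCs (29.7-fold, limma adjusted p = 0.00506) and fell by 3.80 ± 1.09 in MEF-derived ieSCs (13.9-fold, limma adjusted p = 0.0163), and both of its probes passed in each. With names averaged the adjusted p was 0.109 in TTF-derived and 0.157 in MEF-derived ieSCs, and without name 2 of the MEF-derived ieSCs it was 0.0920 there. Without name 2 of the TTF-derived ieSCs, the TTF-derived difference from MEFs was -3.26. The kinds of ieSC overlapped (-1.09 ± 0.89, limma adjusted p = 0.393). This value turned to 0.54 without name 2 of the TTF-derived ieSCs and passed at -2.72 without name 1 (limma adjusted p = 0.0135).

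Igfbp5, which binds the extracellular matrix and is cut by PAPP-A2, was lower in both kinds of ieSC as well. Its level was 13.45, 13.46, 11.35 and 11.5 in TTF-derived ieSCs and 10.2, 10.45, 11.46 and 11.44 in MEF-derived ieSCs, against 14.8 and 14.79 in MEFs. All ieSC arrays were below the MEF arrays, with name 2 lower than name 1 in TTF-derived and higher than name 1 in MEF-derived ieSCs. Igfbp5 fell by 2.36 ± 0.68 in TTF-derived ieSCs (5.12-fold, limma adjusted p = 0.0183) and fell by 3.91 ± 0.68 in MEF-derived ieSCs (15-fold, limma adjusted p = 0.00103). Averaging names gave adjusted p = 0.170 in TTF-derived and 0.0551 in MEF-derived ieSCs, and without name 2 of the TTF-derived ieSCs their difference from MEFs was -1.34. The difference between the kinds of ieSC, 1.55 ± 0.55, did not pass (limma adjusted p = 0.0548). It passed at 2.57 without name 2 of the TTF-derived ieSCs (limma adjusted p = 0.00221) and at 2.12 without name 2 of the MEF-derived ieSCs (limma adjusted p = 0.0431).

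Igfbp6, which prefers IGF2 over IGF1, was the only one of the 10 that rose. It read 18.76, 18.53, 18.39 and 18.4 in TTF-derived ieSCs and 16.72, 16.75, 17.8 and 17.99 in MEF-derived ieSCs, against 14.59 and 14.69 in MEFs. The 3 groups did not overlap. Igfbp6 was 14.7-fold higher in TTF-derived ieSCs than in MEFs (log2 difference 3.88 ± 0.37, limma adjusted p = 2.55e-05) and 6.39-fold higher in MEF-derived ieSCs (2.68 ± 0.37, limma adjusted p = 0.000259). TTF-derived were above MEF-derived ieSCs by 1.20 ± 0.30 (limma adjusted p = 0.0128). That last call was lost with names averaged (limma adjusted p = 0.149) and without name 1 of the TTF-derived ieSCs (limma adjusted p = 0.0658), and without name 1 of the MEF-derived ieSCs the difference was 0.62. The TTF-derived levels lie near the highest value of the whole array table, 19.02, and whether the scale is compressed there was not tested.

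Igfbp7, which binds IGFs weakly and also binds insulin, lay near or below the 40th percentile on most arrays. Its level was 4.50, 4.06, 4.99 and 4.87 in TTF-derived ieSCs and 5.84, 5.48, 5.21 and 3.99 in MEF-derived ieSCs, against 4.76 and 4.72 in MEFs. The groups overlapped, and no difference passed (limma adjusted p = 0.896 in TTF-derived and 0.663 in MEF-derived ieSCs against MEFs, and 0.509 between the kinds of ieSC). The arrays above the range of the 40th percentile were MEF-derived 1a, 1b and 2a, so the gene passed the filter through that group. Without name 2 of the MEF-derived ieSCs, the difference between the kinds of ieSC passed at -1.05 (limma adjusted p = 0.0366). That call rests on MEF-derived arrays 1a and 1b, which took the gene past the filter, so it is not read as support. Levels this dim do not show whether the transcript is present.

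Between the kinds of ieSC, 3 of the 10 genes were higher and 2 lower in TTF-derived than in MEF-derived cells, while 16.8% of all genes were higher and 19.3% lower. Igf1r, Insr and Igfbp6 were higher, and Igf1 and Igf2r were lower. The arrays of the TTF-derived and MEF-derived ieSCs did not overlap for these 5 genes and overlapped for the other 5. How many of all genes show no overlap was not counted, so this adds nothing to the calls. With names averaged, 1 of the 5 calls was left, that of Igf1r.

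Names within a kind of ieSC differed for several of these genes by more than arrays of a name did. Past a log2 difference of 1 between name 2 and name 1 were 2 of the 10 genes in TTF-derived ieSCs, against 5.12% of all genes, and 5 of the 10 in MEF-derived ieSCs, against 4.44%. No test was made, since each name has 2 arrays of unstated origin. The Igfbp2 difference was -3.26 in TTF-derived and -1.96 in MEF-derived ieSCs, where arrays of a name lay at most 0.17 apart. For Igfbp5 it was -2.03 in TTF-derived and 1.13 in MEF-derived ieSCs, with arrays of a name at most 0.25 apart. Igf1 differed by -0.85 and -1.35, and Igfbp6 by -0.24 and 1.17, in the same order. The Igfbp7 difference of -1.06 in MEF-derived ieSCs was smaller than the largest gap between its arrays of a name, 1.23. The median absolute difference over all genes was 0.17 in each kind of ieSC.

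**Figure D3:**
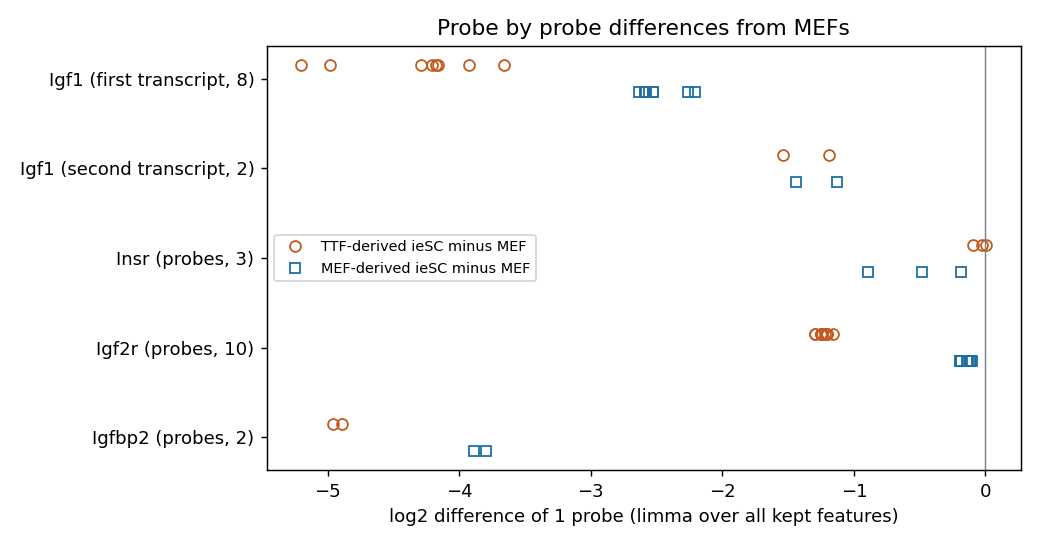
Log2 difference from MEFs (x axis) of each probe of the genes with more than 1 probe (y axis), as circles for TTF-derived and squares for MEF-derived ieSCs. The 8 probes of the first Igf1 transcript lie apart by kind of ieSC, the 2 of the second lie together, and the 10 Igf2r probes form a tight group in each.

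Probe by probe, 26 of the 31 probes were lower and 1 higher in TTF-derived ieSCs than in MEFs, against 18.1% lower and 22.4% higher over the 42617 features kept. In MEF-derived ieSCs 17 were lower and 1 higher, against 21.0% and 25.3%. Between the kinds of ieSC 18 were lower and 3 higher in TTF-derived cells, against 17.0% and 16.8%. Igf1 and Igf2r supply 20 of the 31 probes, and probes of a gene are not independent. Whether some are repeat spots of the same probe is not known.

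Genes that act around these 10 were taken from lists of the pathway, 47 of whose 53 genes were tested. Of these 47, 9 were higher and 15 lower in TTF-derived ieSCs than in MEFs, and 8 were higher and 15 lower in MEF-derived ieSCs. Over all genes, 23.3% were higher and 21.9% lower in TTF-derived ieSCs and 27.2% and 24.0% in MEF-derived ieSCs, and the counts of the small lists below are read against these shares. Between the kinds of ieSC, 6 of the 47 were higher and 12 lower in TTF-derived cells, against 16.8% and 19.3% of all genes. The median log2 difference from MEFs was -0.06 in TTF-derived and -0.08 in MEF-derived ieSCs, against 0.06 and 0.10 over all genes. With names averaged, 11 of 24 calls in TTF-derived ieSCs, 15 of 23 in MEF-derived ieSCs and 4 of 18 between the kinds of ieSC were left.

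Among the other ligands and the insulin-related receptor, Igf2 was the 1 of 3 genes that passed. It stood at 6.51 in TTF-derived and 9.79 in MEF-derived ieSCs, against 12.73 in MEFs, a log2 difference of -6.22 ± 0.84 in TTF-derived ieSCs (limma adjusted p = 0.000238). The difference of -2.94 ± 0.84 in MEF-derived ieSCs (limma adjusted p = 0.0156) was lost with names averaged (0.155). Ins2 and Insrr did not pass. The serum partner Igfals stood near the 40th percentile in all groups and did not pass, and Igfbp1 and Igfbpl1 were below the filter.

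Of 5 proteases of binding proteins and protease inhibitors tested, 3 were lower in TTF-derived and 2 in MEF-derived ieSCs. The 1 higher in each is the inhibitor Stc2. Pappa, whose product cuts IGFBP4, stood at 9.59 in TTF-derived and 12.28 in MEF-derived ieSCs, against 13.16 in MEFs. It passed in TTF-derived ieSCs (-3.58 ± 0.77, limma adjusted p = 0.00393), though not with names averaged (0.100), and not in MEF-derived ieSCs (-0.88 ± 0.77, limma adjusted p = 0.374). Pappa2, whose product cuts IGFBP5, differed by -3.86 ± 0.75 in TTF-derived and -2.56 ± 0.75 in MEF-derived ieSCs (limma adjusted p = 0.00222 and 0.0171), and neither call held with names averaged (0.0522 and 0.109). Adam12, another protease that can cut binding proteins, was lower, with differences of -3.49 and -3.31 in the same order, and Stc2, an inhibitor of PAPP-A, rose by 0.62 and 1.28. The Stc2 call in TTF-derived ieSCs did not hold with names averaged (limma adjusted p = 0.0780). Stc1, another inhibitor, was below the filter.

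Receptor adaptors and inhibitors were lower in 4 of 9 genes in each kind of ieSC and higher in 2 of 9 in TTF-derived and 1 of 9 in MEF-derived ieSCs, where over all genes 21.9% and 24.0% were lower and 23.3% and 27.2% higher. Grb10, which binds and restrains the insulin and IGF1 receptors, stood at 3.99 in TTF-derived ieSCs and 9.996 in MEF-derived ieSCs, against 12.46 in MEFs. It fell by 8.47 ± 0.31 in TTF-derived and fell by 2.46 ± 0.31 in MEF-derived ieSCs (limma adjusted p = 5.62e-08 and 0.000128), and it differed between the kinds of ieSC by -6.01 ± 0.25 (limma adjusted p = 2.95e-07). The TTF-derived level is at the dim end, so this size also depends on the floor. Irs1, the main adaptor of the receptors, was lower, with differences of -2.06 ± 0.20 in TTF-derived and -1.93 ± 0.20 in MEF-derived ieSCs. Irs2 fell in MEF-derived ieSCs by 1.32 ± 0.18 (limma adjusted p = 0.000212), differed from MEFs by 0.10 ± 0.18 in TTF-derived ieSCs (limma adjusted p = 0.703), and was higher in TTF-derived than in MEF-derived ieSCs by 1.42 ± 0.15 (limma adjusted p = 8.17e-05). Irs4 rose by 0.41 in TTF-derived ieSCs, a call lost with names averaged (limma adjusted p = 0.105), and by 0.82 in MEF-derived ieSCs.

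Of 14 genes of the PI3K, AKT and mTOR chain, 4 were higher and 3 lower in each kind of ieSC, close to the shares over all genes. Pik3cb, a catalytic subunit of PI3K, rose by 2.61 ± 0.25 in TTF-derived and 3.17 ± 0.25 in MEF-derived ieSCs, and Pdpk1, a kinase that activates AKT, rose by 0.64 and 1.36 in that order. Rps6kb1, a kinase downstream of mTOR, was lower, at -1.10 and -1.07, as was Pik3r1, a regulatory subunit, at -1.02 and -1.23. The Pdpk1 and Pik3r1 calls in TTF-derived ieSCs were lost with names averaged (limma adjusted p = 0.103 and 0.0709). Of 9 FoxO factors and targets, 1 rose and 1 fell in each kind of ieSC. Ccng2 rose by 0.82 in TTF-derived and 1.21 in MEF-derived ieSCs.

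The IGF2 mRNA binding proteins, which attach to Igf2 and other transcripts, counted 2 lower and 1 higher of 3 in each kind of ieSC. Igf2bp3 differed by -5.04 ± 0.31 in TTF-derived and -5.64 ± 0.31 in MEF-derived ieSCs, and Igf2bp2 by -1.41 and -1.25. Igf2bp1 rose by 0.88 and 0.86 (limma adjusted p = 0.0216 in each), and neither call held with names averaged (0.106 and 0.0991). Ghr, the growth hormone receptor, which drives Igf1 in liver, was lower, with differences of -2.65 ± 0.19 in TTF-derived and -3.29 ± 0.19 in MEF-derived ieSCs.

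**Figure D4:**
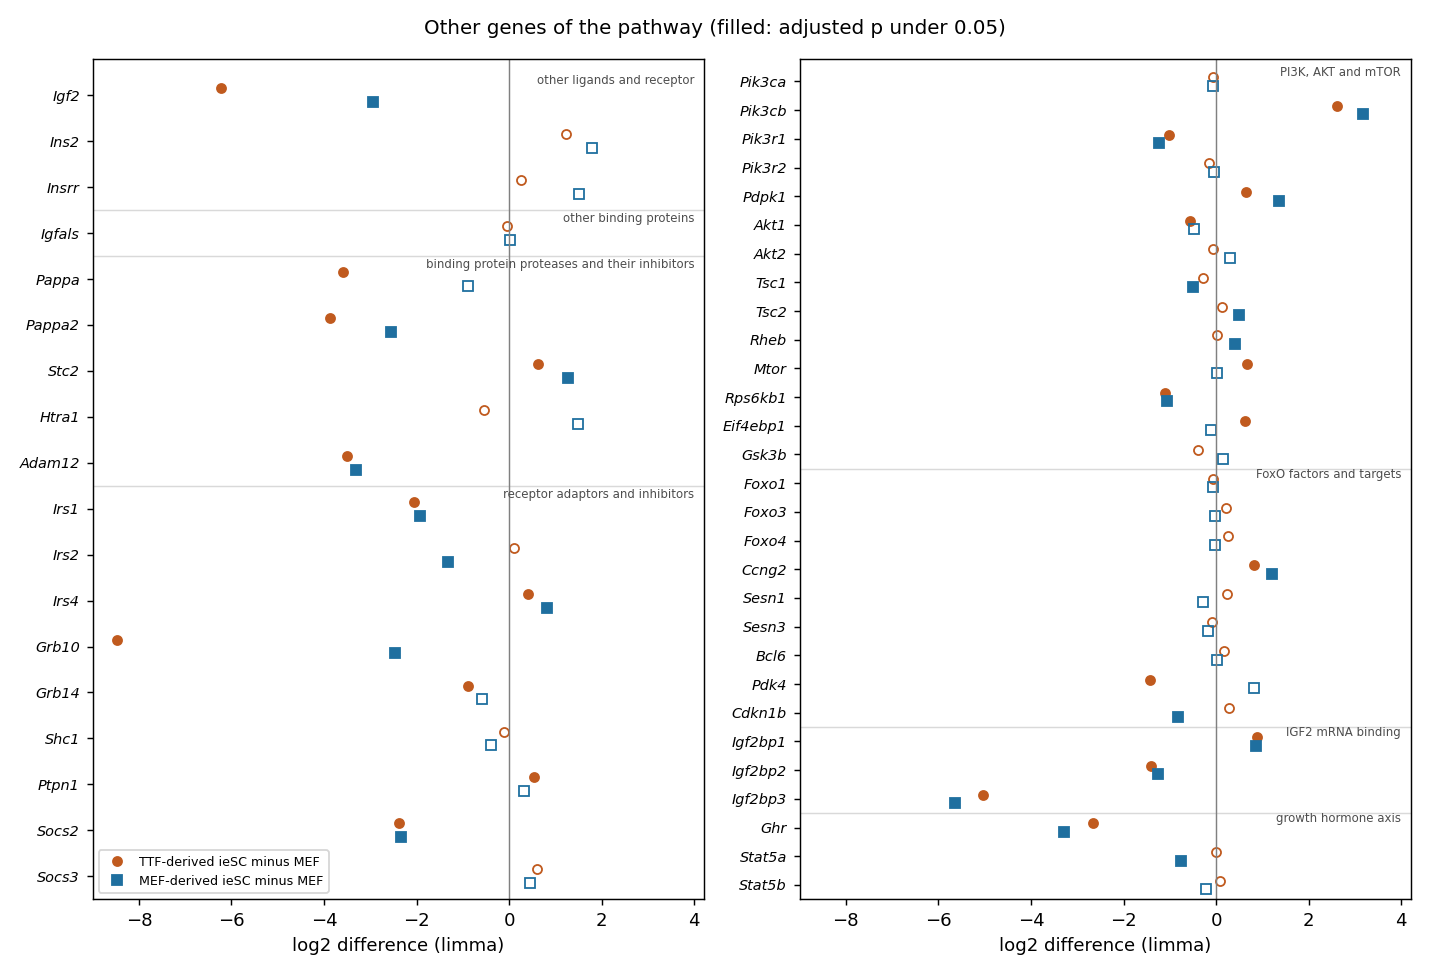
Log2 difference from MEFs (x axis) of the 47 other pathway genes tested (y axis, grouped by list), as circles for TTF-derived and squares for MEF-derived ieSCs; filled marks have a limma adjusted p under 0.05. Grb10 and Igf2 lie farthest left in TTF-derived ieSCs, at -8.47 and -6.22, and Pik3cb farthest right in MEF-derived ieSCs, at 3.17.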

How the data were processed

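Total RNA of 10 cultured samples was hybridised to 1 array each. Source names in the labels gave the groups. The authors deposited log2 intensity for 62976 features, as the values show (0.288 to 19.02). Of tools, limma is the one named, without a version, per the submitters' processing notes. Sorted columns differed by at most 0.0379 above the 40th percentile, as quantile-normalized columns do, and for background correction the method is not given in sources used here. No detection flags are in the table. Gene symbols came from the platform annotation, updated through RefSeq.

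A feature was kept if above the 40th percentile on at least 2 arrays (42617 kept), and a gene was its kept feature with the highest mean (16650 genes). Group means over 10 arrays were fitted in R 4.3.3 (limma 3.58.1, statmod 1.5.0), with the shared name as a random block (duplicateCorrelation, 0.606) and Benjamini-Hochberg adjustment over all genes, threshold 0.05. The same fit was run on all kept features. The code was tested on simulated data. The number of arrays limits precision: the median SE was 0.191 against MEFs and 0.156 between the kinds of ieSC. Alternatives were no block, names averaged, other filters, scaling, a floor, and leaving out arrays or names.

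All 10 genes are named. At most 4 genes per pathway list, by smallest p against MEFs, are named, with 13 further genes fixed by name. The genes and lists were chosen with earlier results of these data known. Replicate numbers 1 and 2 occur in both kinds of ieSC. Name differences correlated at 0.297 over genes, with only 2 pairs, so the numbers were not taken as pairs.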

Additional observations from a re-analysis of the deposited data

Results flagged for a closer look

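The difference from MEFs was not the same in the 2 kinds of ieSC for 5 of the 10 genes, by the direct limma test of TTF-derived minus MEF-derived cells. It was -1.76 for Igf1 (limma adjusted p = 0.00591), -1.07 for Igf2r (0.00168), 1.02 for Igf1r (0.000102), 0.866 for Insr (0.00376) and 1.2 for Igfbp6 (0.0128). Over all genes, 16.8% were higher and 19.3% lower in TTF-derived cells by this test. TTF-derived arrays lay below all MEF-derived arrays for Igf1 and Igf2r and above them for the other 3. The share of all genes without overlap was not counted, so this adds nothing to the calls. Of these 5, Igf1r passed with the arrays of each name averaged. For Insr, 1 of its 3 probes passed. No array of a group of 4 stood apart from the others by Dixon's test at the 95% level for any of the 10 genes. This test looks for a single array, so it would not flag a name whose 2 arrays lie together, apart from the other name.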

How the results depend on the processing

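Over the 30 differences of the 10 genes and 667 values under alternatives, 637 kept their direction and side of the threshold, 14 lost a call, 7 gained one and 9 turned sign. Averaging the arrays of each name had the widest effect. It leaves 5 values, and the lone MEF value is assumed to vary like the other groups. With it 5 of the 10 genes passed in TTF-derived ieSCs (4 lower), 4 in MEF-derived ieSCs (3 lower) and 1 between the kinds of ieSC (1 higher, 0 lower), against 8, 8 and 5. Over the 16650 genes tested, averaging gave 4763 calls in TTF-derived ieSCs, against 7512, and 5899 in MEF-derived ieSCs, against 8524. Between the kinds of ieSC it gave 2421, against 5998. The counts of the 10 genes are read against these totals. Probes called were 17, 11 and 1 in the same order, against 27, 18 and 21. Without name 2 of the TTF-derived ieSCs, 1 of the genes, Igf2r, was lower between the kinds of ieSC, against 2; Igf1 lost its call. Leaving out each array in turn kept 8, 8 and 5 genes. All genes called were then 6729 to 7319 in TTF-derived ieSCs, 7705 to 8421 in MEF-derived ieSCs and 5417 to 5773 between them.

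Sign changes concerned differences that had not passed. Insr in TTF-derived ieSCs ran from -0.096 to 0.018 with single arrays left out: it was 0.013 without MEF array 1, 0.0073 and 0.018 without TTF-derived arrays 2a and 1b, and 0.19 without name 1. Igfbp7 was 0.19 in TTF-derived ieSCs without their name 1, and without name 1 of the MEF-derived ieSCs -0.14 there and 0.0042 between the kinds of ieSC. Without the same name Igf2r in MEF-derived ieSCs was 0.17. Igfbp2 between the kinds of ieSC was 0.54 without name 2 of the TTF-derived ieSCs. Igf2r, Igfbp7 and Igfbp2 each passed with another name left out, as given above. The cause was not tested.

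With the name number as a replicate block, 8339 genes passed between the kinds of ieSC and Igfbp2 gained a call (-1.09, limma adjusted p = 0.0105); it changed no other call of the 10. Dim signals limit Igfbp3 and Igfbp7.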

Other observations

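The RefSeq gene order places Igfbp2 next to Igfbp5 and Igfbp1 next to Igfbp3 among protein-coding genes. The neighbours Igfbp2 and Igfbp5 were both lower than in MEFs, with log2 differences of -4.89 and -2.36 in TTF-derived and -3.80 and -3.91 in MEF-derived ieSCs. In the MEF-derived ieSCs, name 2 was below name 1 for Igfbp2 (-1.96) and above it for Igfbp5 (1.13). Igfbp1 was below the filter, at 3.88 in TTF-derived and 4.09 in MEF-derived ieSCs and 4.54 in MEFs, whereas Igfbp3 was bright in MEFs.

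Of the 9 FoxO factors and targets, 1 was higher and 2 lower in TTF-derived than in MEF-derived ieSCs, against 16.8% and 19.3% of all genes. Ccng2 was lower by a log2 difference of -0.39 ± 0.10 (limma adjusted p = 0.0166), a call lost with names averaged (limma adjusted p = 0.134). Pdk4, a kinase that slows glucose oxidation, was lower in TTF-derived than in MEF-derived ieSCs by a log2 difference of -2.26 ± 0.26 (limma adjusted p = 0.000177), and Cdkn1b, an inhibitor of the cell cycle, was higher by 1.09 ± 0.15 (limma adjusted p = 0.000524).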
